A study of Mus musculus with 8 samples.

Results

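Cytosolic ribosomal protein genes encode the protein components of the ribosome outside the mitochondria, and their expression was described here in the mouse hippocampus after repeated ketamine anesthesia. Members were the protein-coding genes whose symbol begins with Rpl or Rps and a number, together with the P0, P1 and P2 stalk genes and Rpsa, leaving out the Rps6k kinases and names with -ps, at a mean of at least 10 normalized counts. This rule found 83 genes among the 20802 rows of the table, 49 named for the large subunit and 34 for the small subunit, and 0 genes that met the name rule fell under the mean of 10. The rule goes by name, so it takes in Rps19bp1, which is named for binding Rps19, and Rpl7l1, which is named for its likeness to Rpl7. It leaves out Fau, whose product is a ribosomal protein fused to a ubiquitin-like protein.

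The hippocampi of 8 male C57BL/6 mice were analysed by RNA-sequencing, with an Anesthesia group of 4 and a Control group of 4. The Anesthesia group was injected intraperitoneally with ketamine, a dissociative anesthetic, at 35 mg per kg once a day for 5 days beginning at PND16, and the Control group was handled in the same way with normal saline. RNA was collected 1 week after the last injection, and the labels give both groups the age P28. The sample titles call the Control mice untreated although the protocol gives them saline, and the sources name different TruSeq kits for the libraries, one for stranded total RNA and one an RNA sample preparation kit. Each value is a count normalized between mice. The study's methods name division by size factors, while the values were read here as scaled with factors specific to each gene. Raw counts could not be recovered. The normalized counts of a mouse summed to between 18702634 and 19231119.

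The ribosome reads messenger RNA on its small subunit and joins amino acids on its large subunit, and each subunit is built from ribosomal RNA and a fixed set of proteins. The genes are transcribed at high levels in nearly all cells, and their messenger RNAs begin with a pyrimidine tract (the TOP motif) through which the mTOR pathway controls their translation. In neurons, ribosomes are present in dendrites and axons as well as in the cell body, and ketamine has been studied for acute effects on mTOR signalling and protein synthesis.

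The tissue label was checked against markers of hippocampal neurons, and 10 of 10 were present, of which the transcription factor Zbtb20 was the most abundant. Their summed level was 23087, 33908, 16110 and 24787 normalized counts in Anesthesia mice 1 to 4, and 28795, 22928, 25612 and 22033 in Control mice 1 to 4. Anesthesia mouse 3 was the lowest and Anesthesia mouse 2 the highest of the 8, with the Control mice between them. The 12 markers of choroid plexus, the secretory epithelium of the ventricles, summed to 58784, 1312, 765.5 and 3725 in the Anesthesia mice and 925.5, 27472, 68409 and 68267 in the Control mice, with Ttr the most abundant. Choroid plexus RNA was therefore unequal between mice within each group, and also lower on average in the Anesthesia group, where the sums had a mean of 16147 beside 41268. All 12 markers had a log2 fold change (Anesthesia minus Control) below 0, with a median of -1.922, which was -2.904 to -1.229 with 1 mouse left out, and 0 had an unadjusted p under 0.05 in limma, a linear model fit to log2 values. The only marker of that list at 0 in any mouse was Kcne2, at 0.0 in Control mouse 1.

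The median over the genes of each subunit was slightly lower in the Anesthesia group, by less than the distance between its highest and lowest mouse. The median log2 fold change, Anesthesia minus Control, was -0.067 over the 49 large subunit genes and -0.068 over the 34 small subunit genes, beside -0.0036 over the 18865 genes tested. Of the 83 genes 72 had a log2 fold change below 0 (86.7%), beside 50.8% of all genes tested. The fold changes of the large subunit lay between -0.17 for Rpl22 and 0.02 for Rpl27, and those of the small subunit between -0.27 for Rps27l and 1.06 for Rps27, and 81 of 83 were under 0.2 in size. In a bulk sample of tissue, fewer cells of a type and less RNA per cell cannot be told apart.

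No single gene passed the test. With limma, 0 of the 18865 genes tested (0%) had an adjusted p under 0.05, and limma voom also gave 0. At an unadjusted p under 0.05, 897 genes were higher (4.75%) and 616 lower (3.27%) in the Anesthesia group. Among the large subunit genes 0 were higher and 2 lower at that level (Rpl22 and Rpl23), and among the small subunit genes 0 were higher and 2 lower (Rps12 and Rps20), together 4.82% of the 83. The 4 Anesthesia mice lay wholly below the 4 Control mice for 6 of the 83 genes (7.23%), and wholly above them for 0, where 2.23% of all genes tested were wholly below and 2.81% wholly above. The large subunit count was 7 without Anesthesia mouse 1, 1 without Anesthesia mouse 4 or Control mouse 2, and 0 without any 1 of the other mice, and the small subunit count was 3 without Anesthesia mouse 1 and 0 without Control mouse 1 or Control mouse 4. The smallest adjusted p among the 83 was 0.62 in limma.

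**Figure D1:**
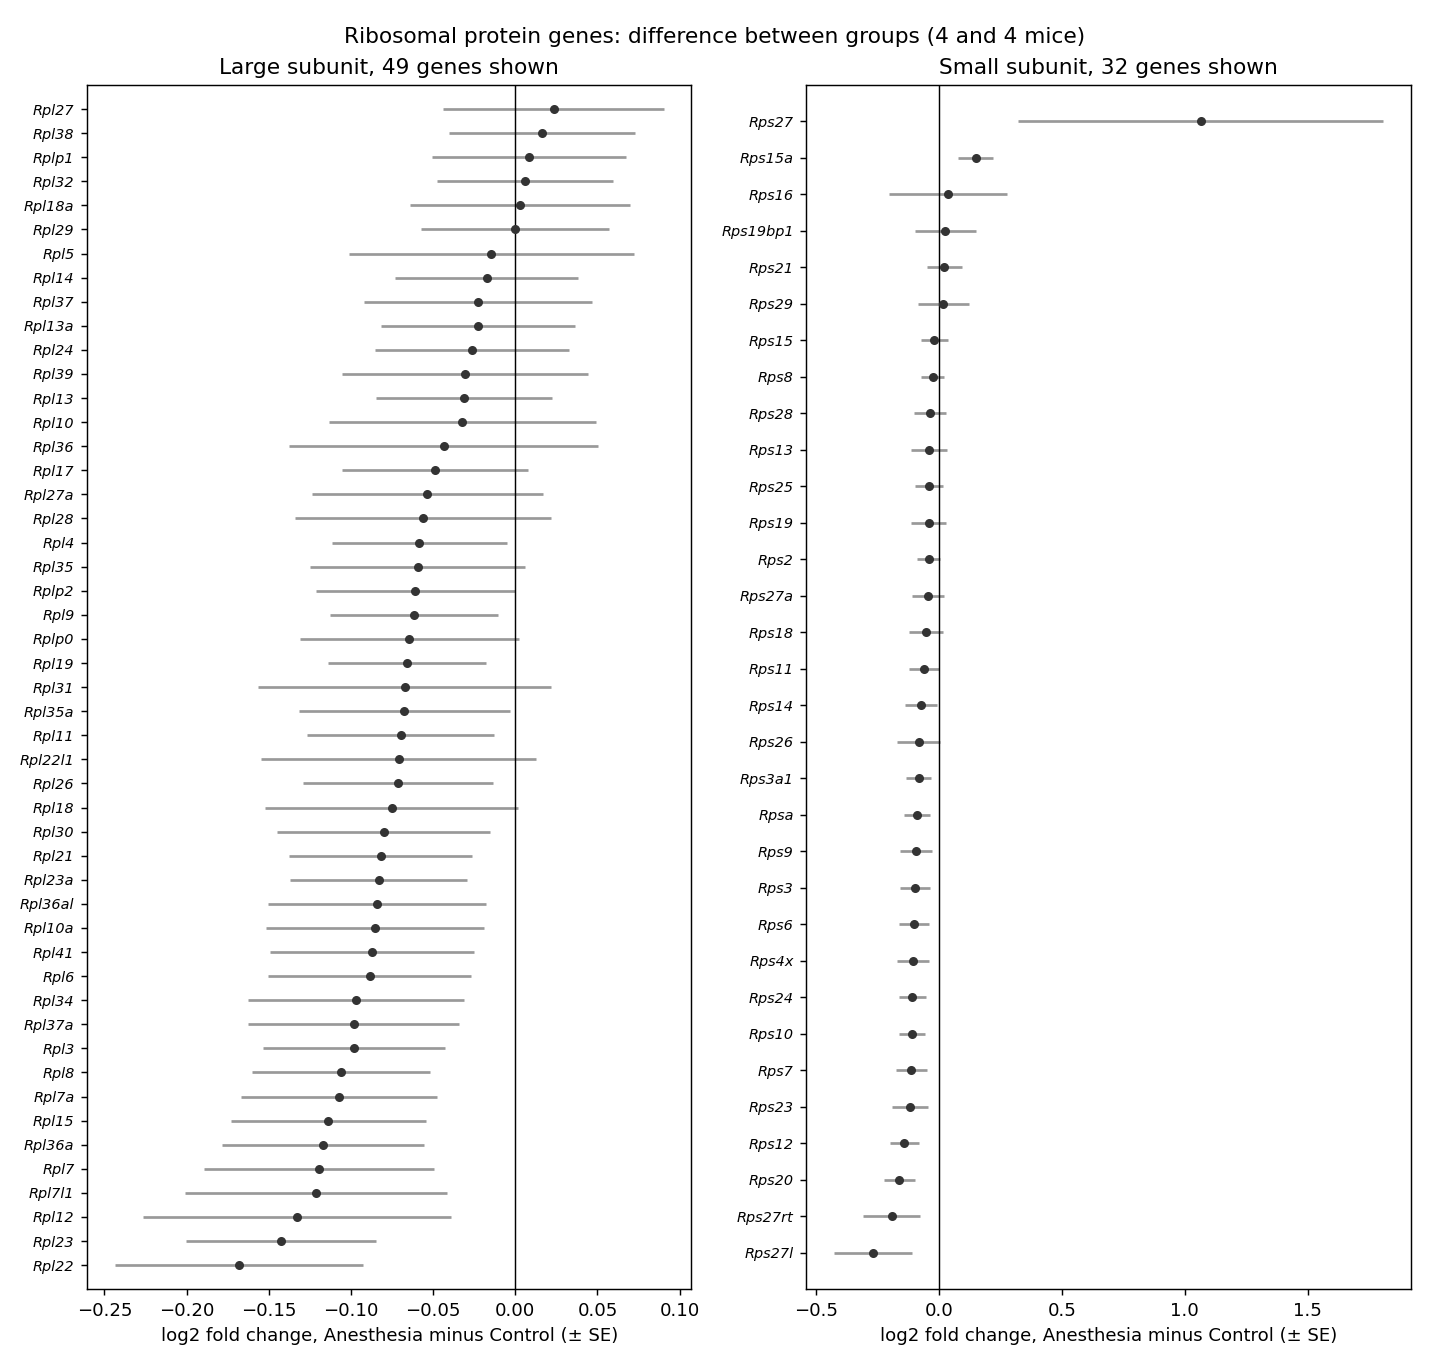
Log2 fold change (Anesthesia minus Control, horizontal axis) of 81 of the 83 ribosomal protein genes, 49 of the large and 32 of the small subunit, with bars of 1 SE from the limma fit over 4 and 4 mice. Of the 81 points 70 lie below 0, where 72 of all 83 genes did, so the small subunit genes not plotted were below 0. Rps27 at 1.06 stands apart from all others with a wide error.

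The shift was largest in Anesthesia mouse 3. For every gene the log2 value of each mouse was set against the mean of the Control group, and the median over genes was then taken. For the large subunit this median was 0.022, -0.069, -0.157 and -0.064 in Anesthesia mice 1 to 4, and 0.022, -0.022, -0.016 and 0.002 in Control mice 1 to 4. For the small subunit it was 0.013, -0.074, -0.161 and -0.04 in the Anesthesia mice and 0.02, -0.034, -0.025 and 0.018 in the Control mice. Anesthesia mice 2, 3 and 4 were below all Control mice in both subunits, mouse 3 farthest, while Anesthesia mouse 1 sat among the highest Control mice, so the groups overlapped. Without Anesthesia mouse 3 the median log2 fold change was -0.041 for the large and -0.031 for the small subunit, and without Anesthesia mouse 1 it was -0.098 and -0.093.

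A similar order was seen in the share of each library. Ribosomal protein genes took 1.098%, 1.026%, 0.988% and 1.06% of all normalized counts in Anesthesia mice 1 to 4 and 1.121%, 1.084%, 1.087% and 1.101% in Control mice 1 to 4. Anesthesia mouse 3 had the lowest value of the 8 mice for 59 of the 83 genes (71.1%), a position it held for 21% of all genes tested. Anesthesia mouse 2 was lowest for another 13 (15.7%), close to its 15% of all genes tested, and Anesthesia mouse 1 for 0, beside 8.83%. The highest value belonged to Control mouse 1 for 25 genes (30.1%, beside 12.2% of all genes), Control mouse 4 for 19 (22.9%, beside 10.8%) and Anesthesia mouse 1 for 15 (18.1%, beside 8.47%). Anesthesia mouse 3 was also at the low end of the hippocampal and choroid plexus marker sums, and their part in the result was not tested beyond 1 model: with the mean of the choroid plexus markers as a covariate, the median log2 fold changes were -0.047 and -0.045, and 13 of 49 large subunit genes were above 0 in place of 5.

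The genes moved together from mouse to mouse. The median SD within groups was 0.082 on the log2 scale for ribosomal protein genes and 0.192 for all genes tested, which include many genes of lower count. After each mouse's own median over the 83 genes was taken off, the median SD of the members was 0.056, and it became smaller for 71 of the 83. The median SE of a fold change was 0.0642, close to the median difference itself.

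**Figure D2:**
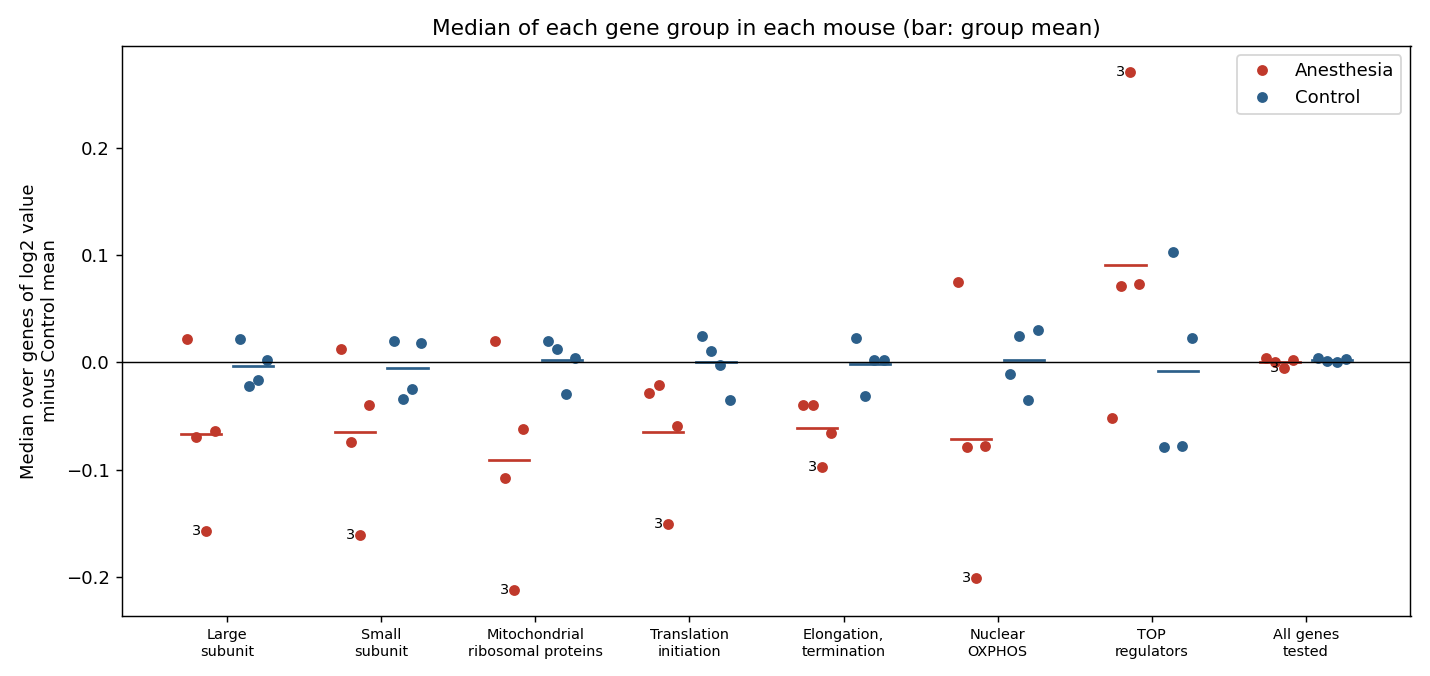
Median over the genes of each group of the log2 value minus the Control mean (vertical axis) in each mouse, red for Anesthesia and blue for Control, with bars at the group means. Anesthesia mouse 3, marked with its number, is lowest for both ribosomal subunits, at -0.157 and -0.161, while the median of all genes tested stays near 0 in all 8 mice.

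Levels between genes were compared per kilobase of the annotated transcript, using the mean over the 8 mice. The median was 2386 normalized counts per kilobase in the large subunit, with a range of 225.8 to 7649, and 3008 in the small subunit, with a range of 180.6 to 6000, beside 91.1 for all genes tested. The highest in the large subunit were Rpl41, which encodes a very short peptide, at 7649, Rplp1 at 6830 and Rpl3 at 6470. The highest in the small subunit were Rps29 at 6000, Rps2 at 5894 and Rps14 at 5409. Lowest were Rps19bp1 at 180.6, Rpl12 at 225.8 and Rpl7l1 at 320.6. A level per kilobase depends on the transcript taken: for Rps15a the annotated transcript is 5179 bases long, and its 384.2 per kilobase follows from that length.

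The stalk of the large subunit recruits the translation factors that hydrolyse GTP, and it is built from Rplp0, Rplp1 and Rplp2 on a base that includes Rpl12. Rplp0 had 3972, 4258, 3507 and 4034 normalized counts in the Anesthesia mice and 4170, 3866, 4265 and 4161 in the Control mice. Rplp1 had 3577, 3486, 3151 and 3462 against 3328, 3297, 3330 and 3635. For both genes Anesthesia mouse 3 was the lowest of all 8, and the other Anesthesia mice lay within the Control range. Rplp2 had a log2 fold change of -0.06 ± 0.06 (SE), which was -0.08 to -0.03 with 1 mouse left out, and Rpl12, with 247.1, 285.3, 246.9 and 291.9 against 298.7, 295.0, 306.4 and 272.5, a log2 fold change of -0.13 ± 0.09 (limma adjusted p = 0.718). The Rpl12 values of the groups overlapped through Control mouse 4.

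Rpl5 and Rpl11 carry the 5S ribosomal RNA into the large subunit and, like Rpl23, can bind MDM2, the ubiquitin ligase that holds p53 down. Rpl23 had 2828, 2485, 2459 and 2690 normalized counts in the Anesthesia mice and 2890, 2889, 2866 and 2886 in the Control mice. The Control mice were almost equal and all above the Anesthesia mice, of which mouse 1 came closest. The log2 fold change was -0.14 ± 0.06 (SE; limma adjusted p = 0.62). Rpl11 had 2237, 2054, 2009 and 2121 against 2186, 2336, 2151 and 2162, and a log2 fold change of -0.07 ± 0.06, which was -0.1 to -0.04 with 1 mouse left out. Rpl5 had 1331, 1342, 1132 and 1386 against 1342, 1258, 1464 and 1179, with both groups spread over the same range and a log2 fold change of -0.01 ± 0.09 (-0.06 to 0.05 with 1 mouse left out).

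A list of 6 large subunit genes held Rpl41 and genes for proteins at the catalytic centre or the exit tunnel. All 6 had a log2 fold change below 0, beside 86.7% of the members and 50.8% of all genes tested. At an unadjusted p under 0.05 there were 0 of them. Rpl3, whose protein reaches toward the peptidyl transferase centre, was the most abundant member by total, with 8919, 8720, 7853 and 8289 normalized counts in the Anesthesia mice and 9451, 8873, 9123 and 8695 in the Control mice. Its groups overlapped, since Anesthesia mice 1 and 2 were above Control mouse 4, and the log2 fold change was -0.10 ± 0.06 (SE; limma adjusted p = 0.669), or -0.13 to -0.06 with 1 mouse left out. Rpl4 and Rpl17, which line the tunnel, had log2 fold changes of -0.06 ± 0.05 and -0.05 ± 0.06, both -0.08 to -0.02 with 1 mouse left out. Rpl39, a small protein near the tunnel exit, was at 816.9, 687.6, 735.8 and 819.8 against 759.6, 757.4, 793.7 and 808.1, where the Anesthesia mice held both the highest and the lowest values, and with 1 mouse left out its log2 fold change ran from -0.07 to 0.02. With the choroid plexus covariate Rpl39 and Rpl10 were both at 0.02, above 0. Rpl41, whose protein is not placed at either site, was at 3552, 2998, 3092 and 3339 against 3523, 3347, 3402 and 3488. Its log2 fold change was -0.09 ± 0.06 (-0.13 to -0.05 with 1 mouse left out).

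In the small subunit, Rps2 and Rps3 stand at the entry of the messenger RNA channel, Rps14 near its exit, and Rpsa on the outer surface. Rpsa had 5638, 5838, 5101 and 5514 normalized counts in the Anesthesia mice and 5750, 5889, 6078 and 5767 in the Control mice. Only Anesthesia mouse 2 reached the Control range, and the log2 fold change was -0.09 ± 0.05 (SE; limma adjusted p = 0.677), or -0.12 to -0.05 with 1 mouse left out. Rps3 had 4794, 4150, 4240 and 4533 against 4760, 4829, 4417 and 4918, and Rps2 had 5903, 5982, 5555 and 5742 against 6083, 6057, 5715 and 6021. In both, the groups overlapped.

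Rps6 encodes the protein that the S6 kinases phosphorylate downstream of mTOR, and phosphorylation itself is not seen in RNA. Its RNA was at 3926, 3772, 3322 and 3772 normalized counts in the Anesthesia mice and 4129, 3908, 3932 and 3867 in the Control mice. Anesthesia mouse 1 lay inside the Control range and the other 3 below it, for a log2 fold change of -0.10 ± 0.06 (SE; limma adjusted p = 0.677), or -0.13 to -0.05 with 1 mouse left out. Rps27a, which is made as a fusion with ubiquitin, was at 2302, 2430, 2075 and 2285 against 2419, 2193, 2297 and 2464. Fau, outside the rule, was at 1817, 1861, 1609 and 1795 against 2005, 1803, 1883 and 1802, and its log2 fold change was -0.08 ± 0.07 (-0.11 to -0.04 with 1 mouse left out). These ubiquitin and ubiquitin-like fusions overlapped between groups, with Anesthesia mouse 3 lowest in each.

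Rps19, Rps24 and Rpl35a are among the genes in which loss of a copy causes Diamond-Blackfan anaemia in people. Of these, Rps24 was wholly lower in the Anesthesia group, with 3910, 3660, 3544 and 4000 normalized counts against 4065, 4141, 4005 and 4064. The gap was narrow, since Anesthesia mouse 4 was next to Control mouse 3, and the log2 fold change was -0.11 ± 0.05 (SE; limma adjusted p = 0.636). Rps19 and Rpl35a had log2 fold changes of -0.04 ± 0.07 and -0.07 ± 0.06, with overlapping groups, and with 1 mouse left out these ran from -0.09 to 0.01 and from -0.1 to -0.03.

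Rps20 and Rps12 belong to the head of the small subunit. Rps20 had the smallest p of the 83, at 1897, 1658, 1872 and 1758 normalized counts in the Anesthesia mice against 2097, 1940, 1920 and 2075 in the Control mice. Every Anesthesia mouse was below every Control mouse, and here mouse 2, not mouse 3, was lowest. The log2 fold change was -0.16 ± 0.06 (SE; limma adjusted p = 0.62). Rps12 was at 2367, 2425, 2179 and 2471 against 2741, 2508, 2542 and 2620, also without overlap, with a log2 fold change of -0.14 ± 0.06 (limma adjusted p = 0.622). Rps10, another protein of the head, was at 1450, 1390, 1406 and 1436 against 1603, 1489, 1495 and 1547. Its groups did not overlap either, and the log2 fold change was -0.11 ± 0.05 (limma adjusted p = 0.636).

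Few genes pointed the other way. Rps15a, a small subunit protein, had 2395, 1977, 1932 and 2079 normalized counts in the Anesthesia mice and 1806, 1891, 1899 and 1938 in the Control mice. Only Anesthesia mouse 3 reached the Control range, and the log2 fold change was 0.15 ± 0.07 (SE; limma adjusted p = 0.636). Without Anesthesia mouse 1, the highest, it was 0.08, and without any 1 of the other mice it was 0.13 to 0.19, with an unadjusted p under 0.05 without Anesthesia mouse 2 or 3. Rpl27 and Rpl38 of the large subunit were both at 0.02, with SEs of 0.07 and 0.06, and did not keep that sign with 1 mouse left out (-0.02 to 0.06 and -0.01 to 0.05). Rps16 had a log2 fold change of 0.04 ± 0.24, from 436.7, 365.2, 415.4 and 546.9 against 246.1, 498.2, 439.0 and 606.2. Control mouse 1 was far below the rest for Rps16, and without it the log2 fold change was -0.22, while without Control mouse 4, the highest, it was 0.21.

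Several ribosomal proteins have a paralog, and some of these paralogs can take their place. Rpl22, an RNA-binding protein of the large subunit, had 1845, 1740, 1548 and 1771 normalized counts in the Anesthesia mice and 1910, 1747, 2026 and 2076 in the Control mice. Control mouse 2 lay inside the Anesthesia range and the other Control mice above it, with a log2 fold change of -0.17 ± 0.08 (SE; limma adjusted p = 0.622). Its paralog Rpl22l1 was at 741.9, 601.0, 596.1 and 610.6 against 669.6, 680.0, 633.1 and 685.8, where Anesthesia mouse 1 was the highest of all 8 and the other Anesthesia mice were the lowest. The log2 ratio of Rpl22 to Rpl22l1 was 1.31, 1.53, 1.38 and 1.54 in the Anesthesia mice and 1.51, 1.36, 1.68 and 1.60 in the Control mice, with no separation. Rpl36a was at 1046, 924.1, 989.7 and 1032 against 1051, 1093, 1081 and 1100, which did not overlap, and its log2 fold change was -0.12 ± 0.06 (limma adjusted p = 0.658). Its paralog Rpl36al had a log2 fold change of -0.08 ± 0.07, and the log2 ratio of this pair was between 0.60 and 0.80 in all mice.

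Rpl7 and Rpl7l1 had the same log2 fold change of -0.12, with SEs of 0.07 and 0.08. These ran from -0.17 to -0.06 and from -0.17 to -0.07 with 1 mouse left out. Whether Rpl7l1 takes the place of Rpl7 was not tested. Rps27l, a paralog of Rps27 that p53 can induce, was at 212.4, 180.0, 136.2 and 191.9 normalized counts in the Anesthesia mice and 203.8, 197.5, 272.1 and 192.6 in the Control mice. Its log2 fold change of -0.27 ± 0.16 (limma adjusted p = 0.673), the lowest of the small subunit, rested on Anesthesia mouse 3 being low and Control mouse 3 high, and the other mice overlapped. It was -0.14 without Anesthesia mouse 3 and -0.15 without Control mouse 3. The paralogs Rpl3l, Rpl10l and Rpl39l had no row in the table and were not analysed here.

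Rps27 and its retrocopy Rps27rt had to be read together. Rps27 lies on chromosome 3 (chr3:90212522-90213651, minus strand, GRCm38) and was at 62.0, 48.8, 820.3 and 60.1 normalized counts in the Anesthesia mice and 65.4, 46.3, 47.5 and 52.9 in the Control mice. Anesthesia mouse 3 alone was high, and without it the log2 fold change of 1.06 ± 0.74 (limma adjusted p = 0.716) became 0.11. Rps27rt, at chr9:114982366-114982739 on the minus strand, was at 1633, 1501, 1091 and 1509 against 1683, 1482, 1603 and 1724, where the same mouse was the lowest of all. Their sum was 1695, 1550, 1911 and 1569 in the Anesthesia mice and 1749, 1529, 1650 and 1776 in the Control mice. Rps27 held 42.9% of that sum in Anesthesia mouse 3 and between 2.88% and 3.83% in the others. Summed into a single gene, the log2 fold change was 0.00 (limma adjusted p = 0.996), so the separate values of these genes are uncertain.

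The coding sequences of the pair are printed because they could not be told apart. Over 255 bases each, the annotated coding sequences of Rps27 and Rps27rt (GENCODE M21, GRCm38, 5′ to 3′ on the minus strand of each locus) had 0 mismatches, an identity of 100%. Of the 31-base words in the Rps27 transcript, 98.7% also occur in Rps27rt. The coding sequence that both share is printed once, without capitals because no base differs.
Rps27 and Rps27rt: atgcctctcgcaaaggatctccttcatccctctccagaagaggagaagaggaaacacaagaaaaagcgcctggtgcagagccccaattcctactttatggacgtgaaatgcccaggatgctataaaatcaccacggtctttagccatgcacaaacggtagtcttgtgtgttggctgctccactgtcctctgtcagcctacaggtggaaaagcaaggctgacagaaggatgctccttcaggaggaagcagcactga

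The sequence around their start sites differs. Windows from 100 bases before the listed start to 30 bases from it, with the start as the first of these 30, were taken from RefSeq on GRCm38.p6 (Rps27 chr3:90213619-90213748, Rps27rt chr9:114982710-114982839, both minus strand), and capitals mark the 29 bases that the windows share without a break. The shared run begins at or next to the start, and upstream of it no run as long is shared.
Rps27: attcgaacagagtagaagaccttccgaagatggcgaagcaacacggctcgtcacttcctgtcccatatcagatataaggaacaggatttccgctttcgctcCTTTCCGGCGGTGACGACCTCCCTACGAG
Rps27rt: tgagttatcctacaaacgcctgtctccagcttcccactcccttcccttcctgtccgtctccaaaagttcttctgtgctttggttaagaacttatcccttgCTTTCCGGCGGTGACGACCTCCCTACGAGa

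Shared sequence was common in the whole family. The median gene shared 55.2% of the 31-base words of its transcript with transcripts of other genes, 6 of the 83 shared over 90%, and 1, Rps19bp1, shared 0. Rpl10 shared 92.3% with Rpl10-ps3, which is annotated as protein-coding and was left out by name. Rpl10 was at 512.5, 429.7, 426.3 and 461.0 normalized counts in the Anesthesia mice and 471.0, 447.5, 484.7 and 463.4 in the Control mice, while Rpl10-ps3 was at 2833, 2742, 2529 and 2630 against 2798, 2863, 2719 and 2928. Rpl10 thus held 13.5% to 15.3% of the pair in every mouse, and how the authors' quantification divided reads between them was not tested. The 26 rows with ribosomal protein names that the rule left out by name or annotation, Rpl10-ps3 among them, summed to 5009.4, 4816.1, 4510.3 and 4333.0 in the Anesthesia mice and 4780.6, 4686.4, 5105.8 and 4904.4 in the Control mice. The sum was lowest in Anesthesia mouse 4, where Rps23-ps1 was at 624.6 beside 1066 in Anesthesia mouse 3, while Rpl10-ps3, the largest row, was lowest in Anesthesia mouse 3.

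**Figure D3:**
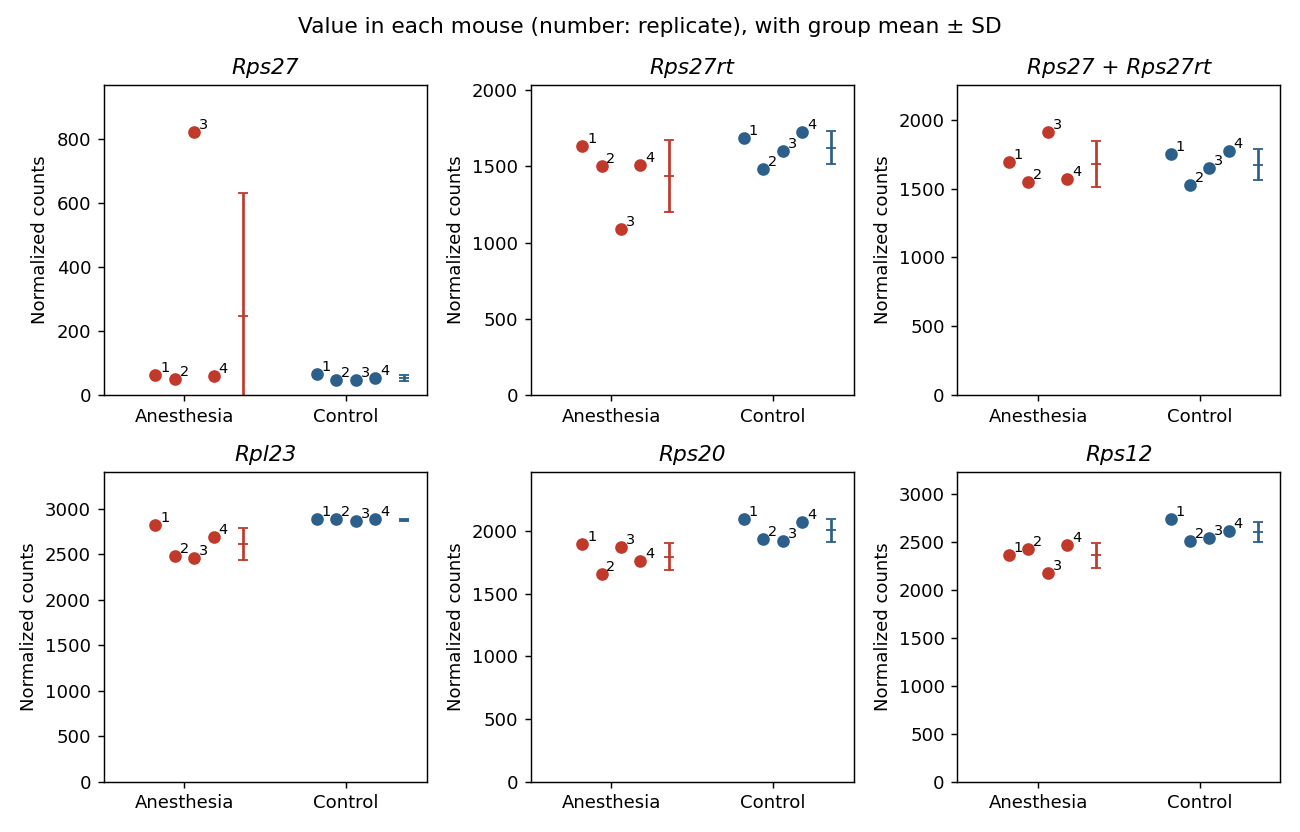
Normalized counts (vertical axis, from 0) of Rps27, Rps27rt, their sum, Rpl23, Rps20 and Rps12 in each mouse, numbered by replicate, with the mean and SD of each group of 4 beside the points. Rps27 is high in Anesthesia mouse 3 alone, at 820.3, where Rps27rt is lowest, at 1091, and for Rpl23, Rps20 and Rps12 all Anesthesia points lie below all Control points.

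Promoters were examined because the genes moved together from mouse to mouse. RefSeq start sites were found for 63 of the 83 genes, with 74 windows of 250 bases before to 50 bases after the start, and were set beside all 32851 windows of that length. A C at the start followed by at least 4 pyrimidines on the gene's strand, as in the TOP motif, was present in 18.9% of the members' windows and 2.5% of all. On either strand, CCGGAAG (an ETS-type motif) was present in 35.1% and 8.9%, GGGCGG (SP1) in 62.2% and 35.7%, AAGATGG (YY1) in 16.2% and 6.3%, and TATAAA in 9.5% and 13.6%. The pyrimidine words CTTTCC and CTTTTC, which can overlap a TOP tract, were present in 51.4% and 24.3% of the members' windows and 26.6% and 21.8% of all. By subunit, the start with pyrimidines was found in 16.3% of large and 22.6% of small subunit windows. A listed start can be off by a few bases, so a window without the pyrimidines at its first base may still hold them close by.

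Windows of 100 bases before to 30 bases from the start are shown for Rps6 and Rplp2, which have such a start, and for Rps12 and Rpl23, which had the smallest p among the members with a listed start (RefSeq, GRCm38.p6). They lie at chr4:86857338-86857467 (Rps6, minus strand), chr7:141447551-141447680 (Rplp2, plus strand), chr10:23787180-23787309 (Rps12, minus strand) and chr11:97782410-97782539 (Rpl23, minus strand). Capitals mark the pyrimidine run at the start and any match to the motifs above on either strand.
Rps6: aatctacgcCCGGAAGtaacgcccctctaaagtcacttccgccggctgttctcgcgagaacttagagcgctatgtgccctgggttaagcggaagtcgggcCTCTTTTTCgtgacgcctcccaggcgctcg
Rplp2: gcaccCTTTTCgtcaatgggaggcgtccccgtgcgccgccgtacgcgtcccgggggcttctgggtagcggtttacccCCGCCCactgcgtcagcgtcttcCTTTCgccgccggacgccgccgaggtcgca
Rps12: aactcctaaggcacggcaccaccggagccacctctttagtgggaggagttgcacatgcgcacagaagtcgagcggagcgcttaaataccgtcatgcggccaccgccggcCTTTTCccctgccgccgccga
Rpl23: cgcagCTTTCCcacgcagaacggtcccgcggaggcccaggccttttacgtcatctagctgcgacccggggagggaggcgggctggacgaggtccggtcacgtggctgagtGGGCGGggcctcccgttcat

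Members were spread over 19 chromosomes, with at most 14 on 1 chromosome, and chromosome 7 held these 14.

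Other genes of translation were counted by list, and the counts are to be read beside the shares of all genes tested, 50.8% below 0, 4.75% higher and 3.27% lower at an unadjusted p under 0.05. Of 12 elongation and termination genes 10 were below 0, with a median log2 fold change of -0.058 (-0.076 to -0.033 with 1 mouse left out), 0 higher and 1 lower at an unadjusted p under 0.05. Eef1a1, which delivers aminoacyl-tRNA to the ribosome, was at 46202, 45483, 37677 and 42470 normalized counts in the Anesthesia mice and 49587, 45359, 48224 and 46092 in the Control mice. Anesthesia mouse 3 was again lowest and the groups overlapped through Anesthesia mice 1 and 2. Eef1b2, which reloads Eef1a1 with GTP, was at 1575, 1461, 1352 and 1540 against 1614, 1617, 1655 and 1662, without overlap, with a log2 fold change of -0.15 ± 0.06 (SE; limma adjusted p = 0.622).

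Of 30 initiation genes 25 were below 0, with a median of -0.076 (-0.087 to -0.045 with 1 mouse left out), and 1 was higher at an unadjusted p under 0.05. This was Eif4g3, a scaffold of the cap-binding complex, at 2624, 2537, 3732 and 2803 normalized counts in the Anesthesia mice against 2384, 2741, 2115 and 2362 in the Control mice, with Anesthesia mouse 3 far above the rest. A list of 12 genes held nascent chain and ribosome-associated factors, and also Hnrnpa1, Nap1l1 and Npm1, whose proteins have other main roles. Of these 12 genes 11 were below 0, Hnrnpa1, Nap1l1 and Npm1 among them (median -0.098, and -0.116 to -0.043 with 1 mouse left out). Rack1, a scaffold on the small subunit, was also below 0. It was at 3129, 3356, 3003 and 3008 against 3357, 3056, 3004 and 3083, with complete overlap. Of 30 ribosome biogenesis genes 20 were below 0 (median -0.043, and -0.065 to -0.015 with 1 mouse left out), with 1 higher and 1 lower at an unadjusted p under 0.05. The higher was Gar1, of the pseudouridylation complex, at 39.7, 43.7, 46.0 and 45.1 against 15.5, 26.6, 26.9 and 30.0, a log2 fold change of 0.83 ± 0.23 (limma adjusted p = 0.568). The lower was Mdn1, an ATPase of large subunit maturation, with a log2 fold change of -0.19 ± 0.08 (-0.33 with GC and length correction).

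The list of TOP regulators, of 12 genes, was broad. Beside genes of the mTOR pathway it held Myc, Mycn, Rps6ka1 and Rps6ka3, which are not specific to TOP messenger RNAs. Of the 12 genes 8 were above 0, among them Myc, Mycn and Rps6ka3, while Rps6ka1 was below 0. The median of the list was 0.073, and 0.009 to 0.121 with 1 mouse left out. It was -0.012 with each library corrected for GC content and transcript length. Mtor, the kinase itself, was at 3270, 3199, 3119 and 3247 normalized counts in the Anesthesia mice against 3101, 2911, 2872 and 2840 in the Control mice. All Anesthesia mice were above all Control mice by a narrow margin, and the log2 fold change was 0.13 ± 0.05 (SE; limma adjusted p = 0.62). With the same correction it was -0.01. Larp1, which binds TOP messenger RNAs, had a log2 fold change of 0.07 ± 0.07 with overlapping groups. Of 10 hosts of small nucleolar RNAs, 6 were below 0 (median -0.045, and -0.072 to 0.032 with 1 mouse left out), and 1 was lower at an unadjusted p under 0.05. This was Snhg5, at 128.2, 143.5, 183.6 and 134.1 normalized counts in the Anesthesia mice against 210.3, 166.4, 186.9 and 212.2 in the Control mice, a log2 fold change of -0.40 ± 0.14 (limma adjusted p = 0.62). Its groups overlapped through Anesthesia mouse 3.

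The proteins of the mitochondrial ribosome are encoded in the nucleus. Of 78 genes for them 66 were below 0, beside 50.8% of all genes tested, with a median of -0.089 (-0.115 to -0.049 with 1 mouse left out). At an unadjusted p under 0.05, 0 were higher and 4 lower, beside 4.75% and 3.27% of all genes, and 0 had an adjusted p under 0.05. Their per-mouse median was 0.02, -0.108, -0.212 and -0.062 in the Anesthesia mice and 0.02, 0.013, -0.029 and 0.004 in the Control mice. Of 28 nuclear genes of oxidative phosphorylation 24 were below 0 (median -0.078, -0.135 to -0.036 with 1 mouse left out and -0.029 with the choroid plexus covariate), with per-mouse medians of 0.075, -0.079, -0.201 and -0.078 against -0.011, 0.025, -0.035 and 0.03. The order of the Anesthesia mice was that of the ribosomal proteins, mouse 1 highest and mouse 3 lowest. The 13 protein-coding genes of mitochondrial DNA had a median of 0.059, which was 0.002 without Control mouse 1, with 1 higher and 1 lower at an unadjusted p under 0.05.

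Anesthesia mouse 3 also stood at an end of other lists, high in some and low in others. Its per-mouse median was the highest of the 8 mice for nuclear-retained RNAs, at 0.029, 0.062, 0.16 and 0.025 in the Anesthesia mice and 0.028, 0.02, -0.013 and -0.011 in the Control mice. The same held for general neuronal markers, at 0.02, 0.005, 0.156 and -0.008 against 0.027, 0.065, -0.037 and -0.008. It also held for striatal markers (0.452), endothelium (0.253), astrocytes (0.027) and the broad list of TOP regulators (0.271). Anesthesia mouse 3 was the lowest of the 8 for hippocampal markers (-0.597), immature neurons or dividing cells (-0.353), hosts of small nucleolar RNAs (-0.132) and choroid plexus (-4.057). Sums, which follow the most abundant genes, gave another order for hosts of small nucleolar RNAs, immature neurons or dividing cells, and nuclear-retained RNAs. The hosts of small nucleolar RNAs summed to 19292 in Anesthesia mouse 3, the highest of the 8, and to between 12166 and 15205 in the other mice. The markers of immature neurons or dividing cells summed to 3016 in that mouse, above the 2953 and 2725 of Control mice 2 and 4. The 8 nuclear-retained RNAs, led in abundance by Malat1, summed to 410372, 469272, 429404 and 448189 normalized counts in the Anesthesia mice and 391168, 385124, 408938 and 391631 in the Control mice, all 4 Anesthesia mice being above the Control mice and mouse 3 below mice 2 and 4. Of these 8 genes 6 were above 0, with a median log2 fold change of 0.068 (0.037 to 0.094 with 1 mouse left out, 0.022 with the choroid plexus covariate and 0.018 with GC and length correction). At an unadjusted p under 0.05, 3 were higher (Miat, Meg3 and Malat1) and 0 lower, beside 4.75% and 3.27% of all genes tested, and 0 had an adjusted p under 0.05. Miat had the smallest p, at 8280, 9581, 10566 and 10775 normalized counts in the Anesthesia mice against 7525, 7574, 6734 and 6326 in the Control mice, without overlap, and a log2 fold change of 0.47 ± 0.09 (SE; limma adjusted p = 0.565). The 10 markers of striatum, led by Pde10a, summed to 3138, 2710, 3614 and 2990 against 2642, 2914, 2947 and 2679, with mouse 3 highest, and 1 gene higher and 0 lower at an unadjusted p under 0.05. The 10 general neuronal markers, led by Map2, summed to 108755, 108789, 116205 and 107291 against 110803, 109480, 103617 and 104554, with mouse 3 again highest, and 2 genes higher and 1 lower at that level. The oligodendrocyte list, led by Mbp, summed to 123868, 128026, 113742 and 194956 against 102150, 130511, 185517 and 168722, a wide spread in both groups, with mouse 3 above Control mouse 1 only, and 0 genes at that level. Their part in the lower ribosomal protein values was not tested.

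The median log2 fold changes of the remaining marker lists were -0.071 for astrocytes, 0.034 for microglia, -0.011 for endothelium and 0.063 for immature neurons or dividing cells. They were -0.043 for thalamus, -0.062 for hippocampus and -0.211 for blood. With 1 mouse left out these medians ran from -0.1 to 0.077 for endothelium and -0.041 to 0.188 for immature neurons or dividing cells. They ran from -0.092 to 0.05 for thalamus and -0.222 to 0.172 for hippocampus, so the direction of these 4 depended on single mice. For astrocytes the range was -0.076 to -0.037, for microglia 0.001 to 0.101 and for blood -0.337 to -0.124. At an unadjusted p under 0.05, 1 astrocyte gene was higher. At that level 1 gene of immature neurons or dividing cells and 1 of thalamus were lower, and the other 4 lists had 0. In none of these 7 lists did any gene have an adjusted p under 0.05 in limma.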

How the data were processed

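The authors quantified transcripts with Salmon 1.1.0 on GRCm38 and deposited counts normalized with DESeq2 1.30.1 in R 3.5.3, per the submitters' processing notes and the study's methods. The deposited values are a normalized signal that is not whole, so no count model was fitted, and sequencing depth is unknown. Symbols, positions and transcript lengths came from GENCODE M21 for 20784 of 20802 identifiers. limma 3.58.1 in R 4.3.3 was fitted with a mean-variance trend to log2(value + 1) of 18865 genes (mean 10 or more), without covariates, and p-values were adjusted over all of them (Benjamini-Hochberg). Every fold change is on that log2 scale, which understates differences of low genes. Members and lists were chosen with earlier results of these data known, and the mitochondrial ribosomal list was added after the values were seen. Named are the genes of fixed roles, the extremes of each subunit by fold change, p and level, members whose groups did not overlap, and the smallest p and highest mean of each list; other members are given where a sentence needs them, and a few genes are not reported here by name. Alternatives were other scalings, filters, a pseudocount of 0.1, limma voom, a replicate block, GC and length correction, a choroid plexus covariate, robust spread and each mouse left out.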

Additional observations from a re-analysis of the deposited data

Results flagged for a closer look

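Within groups of 4 mice, 16 of 204 sets of values had 1 mouse far from the other 3. Chance gives about 1 in 20 for independent sets that were not selected. Here many genes were named for extreme values, and list sums contain genes that also stand alone. The count therefore cannot be judged against that rate. Among ribosomal protein genes these were Rps27 in Anesthesia mouse 3 (820.3 normalized counts), Rpl22l1 in Anesthesia mouse 1 (741.9), Rps27l in Control mouse 3 (272.1), Rps2 in Control mouse 3 (5715), Rpl23 in Control mouse 3 (2866) and Rplp1 in Control mouse 4 (3635). The Rpl23 value was only slightly under those of the other Control mice.

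Among the other genes named, Eif4a2 was at 16011 in Control mouse 1, Mbp at 57023 and Tcf7l2 at 39.5 in Anesthesia mouse 4, and Pde10a at 2000.0 and Rora at 2396 in Anesthesia mouse 3. In Anesthesia mouse 1, Ttr was at 53003 and Kcnj13 at 304.6, and the choroid plexus markers summed to 58784 and the microglial markers to 6298. The neuronal markers summed to 116205 in Anesthesia mouse 3.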

How the results depend on the processing

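The medians of both subunits stayed below 0 under every alternative run, between -0.075 and -0.044 for the large and -0.076 and -0.042 for the small subunit, and with 1 mouse left out between -0.098 and -0.041 and between -0.093 and -0.031. The count of all genes at an adjusted p under 0.05 stayed 0 except without Control mouse 1, where it was 2, so the range was 0 to 2 with 1 mouse left out. Genes at an unadjusted p under 0.05 were 1513, and 851 with the choroid plexus covariate.

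Large subunit genes at an unadjusted p under 0.05 were 2, and 1 with upper quartile scaling, limma voom or GC and length correction, 0 with the choroid plexus covariate, and 0 to 7 with 1 mouse left out. The small subunit count was 2, both lower, and 3 with upper quartile scaling (Rps15a, higher, in addition), 1 with the covariate (Rps15a, higher), 0 with GC and length correction, and 0 to 3 with 1 mouse left out, where the 2 genes without Anesthesia mouse 2 or 3 were Rps15a, higher, and 1 lower. Mtor reversed to -0.01 under GC and length correction, with and without the block. The sum of Rps27 and Rps27rt was chosen after the data were seen.

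The replicate numbers did not pair the mice: same-numbered mice had correlations of -0.242, -0.109, -0.182 and 0.0194. With the replicate block 0 large and 1 small subunit genes were at an unadjusted p under 0.05, with 0 genes at an adjusted p under 0.05. With GC and length correction as well as the replicate block these counts were 0 and 0, and 872 of all genes.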
